A study of Mus musculus with 6 samples.

Results

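The 7 genes described here are *Parp9*, *Dtx3l*, *Parp14*, *Parp10*, *Parp11*, *Parp12* and *Parp1*, which were taken by name as the interferon-linked ADP-ribosyltransferase genes, the ubiquitin ligase gene paired with *Parp9*, and a constitutive comparison gene. Every predicted enhancer-gene pair whose target was 1 of these genes was collected. Of the 7 genes, 6 were listed as a target in at least 1 condition, out of 32049 target genes in all. They held 7 of 66637 pairs in untreated cells and 13 of 71478 pairs after interferon.

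The study profiled primary oligodendrocyte precursor cells (OPCs), the dividing cells that give rise to myelinating oligodendrocytes, from the brains of mice of the genotype Sox10-Cre/RCE. The labels give C57BL/6j as the strain, whereas by the study's methods the reporter parents were of mixed C57BL/6xCD1 background. In these animals of early postnatal age, Cre under *Sox10* control switches on a green reporter in the oligodendrocyte lineage, and both conditions carried this genotype. Cells of several brains were pooled per culture and grown in proliferation medium alone (Ctr-OPCs) or, starting 24 h after passaging, in medium to which IFN-γ was added at 100 ng/mL (IFN-γ-OPCs), with 3 HiChIP libraries per condition from different litters. HiChIP captures DNA contacts at chromatin that carries a chosen mark, here H3K27ac, a histone acetylation found at active enhancers and promoters. The activity-by-contact (ABC) model multiplies the activity of an element (its open chromatin and H3K27ac signal) by its contact with a gene start, and divides by the sum of this product over all elements around the gene. The resulting ABC score is therefore a share of the gene total, and a pair with a score above 0.05 is called a connection. Each condition was available as 1 table over its 3 libraries, so no value below has a replicate error, no test across libraries could be made, and the read depth is unknown. These tables average over cells, and more cells with a signal cannot be told apart from more signal per cell.

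PARP enzymes transfer ADP-ribose from NAD+ to proteins and nucleic acids, either as chains or as single units. *Parp1*, a sensor of DNA breaks that builds chains, is active in most cells, whereas *Parp9*, *Parp14*, *Parp10*, *Parp11* and *Parp12* are known as interferon-inducible genes in many tissues. Many interferon-responsive genes carry regulatory motifs known as the gamma-activated site (GAS) and the interferon-stimulated response element (ISRE).

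*Parp9* and *Dtx3l* lie head to head on mouse chromosome 16, with overlapping first parts and 681 bp between their starts, and *Parp14* starts 67.6 kb from the *Dtx3l* start. In GRCm38 (mm10) coordinates, *Parp9* spans chr16:35938470-35972605 on the plus strand, *Dtx3l* spans chr16:35926511-35939151 on the minus strand and *Parp14* spans chr16:35832874-35871544 on the minus strand. The members elsewhere are *Parp10* (chr15:76231174-76243441, minus strand), *Parp11* (chr6:127446840-127494261, plus strand), *Parp12* (chr6:39086410-39118349, minus strand) and *Parp1* (chr1:180568924-180601254, plus strand).

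The listed elements on which the results turn are shown by the stretches that hold a motif match, read 5′ to 3′ from the plus strand of the GRCm38.p6 reference. Capitals mark a match on either strand to the ISRE core, GAAA followed after 2 free bases by a further GAAA, or to the GAS motif TTCNNNGAA. The first stretch is from the intergenic element between *Parp14* and *Dtx3l* (chr16:35918756-35919055), the next from the IFN-γ-OPC element in a *Parp14* intron (chr16:35869165-35869464), followed by the intronic elements of *Parp10* (chr15:76239157-76239276) and *Parp11* (chr6:127449600-127449719). The last is the sequence just before the *Parp11* start from the RefSeq promoter table (chr6:127446720-127446839), in which an ISRE core and a GAS match overlap.
intergenic element between Parp14 and Dtx3l: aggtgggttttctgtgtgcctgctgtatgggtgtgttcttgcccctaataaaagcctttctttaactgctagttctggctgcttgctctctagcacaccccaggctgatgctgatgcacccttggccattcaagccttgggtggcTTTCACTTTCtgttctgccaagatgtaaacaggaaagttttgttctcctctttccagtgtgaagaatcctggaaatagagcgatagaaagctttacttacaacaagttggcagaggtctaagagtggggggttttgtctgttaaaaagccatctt
Parp14 intron element: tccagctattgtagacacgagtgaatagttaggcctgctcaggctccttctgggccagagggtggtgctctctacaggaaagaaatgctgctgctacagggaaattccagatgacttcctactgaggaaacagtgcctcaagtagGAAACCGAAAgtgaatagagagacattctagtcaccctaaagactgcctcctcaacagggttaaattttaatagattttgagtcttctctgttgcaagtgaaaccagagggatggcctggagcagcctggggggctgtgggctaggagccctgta
Parp10 intron element: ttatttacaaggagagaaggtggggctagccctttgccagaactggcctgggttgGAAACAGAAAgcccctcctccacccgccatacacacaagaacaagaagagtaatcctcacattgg
Parp11 intron element: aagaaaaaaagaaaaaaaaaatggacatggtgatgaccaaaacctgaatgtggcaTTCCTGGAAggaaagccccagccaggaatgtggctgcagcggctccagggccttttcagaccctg
Parp11 upstream window: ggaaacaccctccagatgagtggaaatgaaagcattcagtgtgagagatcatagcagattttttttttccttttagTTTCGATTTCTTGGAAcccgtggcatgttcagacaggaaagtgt

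Of the 7 genes, *Parp9*, *Dtx3l* and *Parp14* had more connections with IFN-γ, each rising from 0 to 1, and the other 4 genes had the same number in both. Over all target genes, 14.9% had more connections and 13% had fewer, so a gain of this kind was common in these tables. Counting every listed pair, 5 of the 6 listed genes had more pairs with IFN-γ, against 42.4% of all target genes, and *Parp1* had fewer, against 35.7%. The 3 genes on chromosome 16 went from 3 pairs to 8, and *Parp10*, *Parp11* and *Parp12* went from 3 to 5. These gains are not independent, because *Parp9* and *Dtx3l* share the 5 kb contact bin of their starts and therefore nearly all their values.

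**Figure D1:**
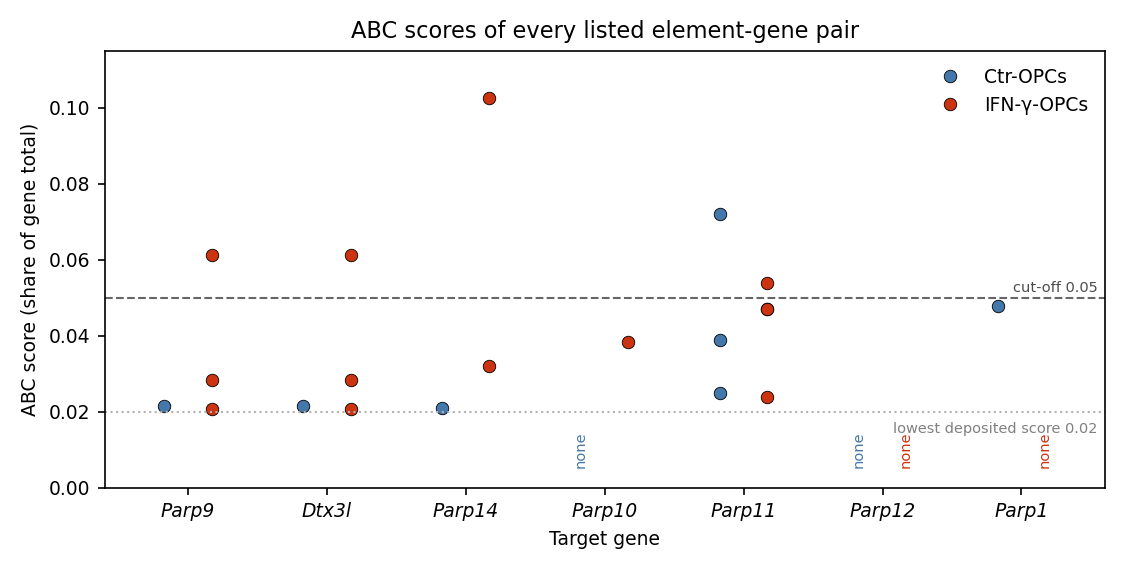
ABC score (vertical axis, share of the gene total) of each listed pair of the 7 genes in Ctr-OPCs (blue points) and IFN-γ-OPCs (red points), with the connection cut-off and the lowest deposited score as lines. In Ctr-OPCs the only point above 0.05 belongs to *Parp11*, and in IFN-γ-OPCs there is 1 such point each for *Parp9*, *Dtx3l*, *Parp14* and *Parp11*.

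*Parp9*, whose product acts in a complex with the Dtx3l ubiquitin ligase, was listed in Ctr-OPCs with 1 element, in its own intron at chr16:35942433-35942932, at a score of 0.0216. In IFN-γ-OPCs it was listed with 3 elements, at scores of 0.0614, 0.0283 and 0.0207. The element of the untreated cells was not among them and overlapped no element of the IFN-γ-OPC table. *Dtx3l*, the ligase gene itself, had the same elements and scores, 0.0216 without IFN-γ and 0.0614, 0.0283 and 0.0207 with it.

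The connection of both genes ran to the intergenic element at chr16:35918720-35919219, 19.5 kb from the *Parp9* start and 20.2 kb from the *Dtx3l* start. Its activity was 3.45 in IFN-γ-OPCs, higher than that of 97.5% of the 35906 elements of that table, and no element of the Ctr-OPC table overlapped it. With the contact measured in IFN-γ-OPCs and the totals of Ctr-OPCs, an activity of at least 1.02 would have been needed for this element to be listed with *Parp9* or *Dtx3l* in Ctr-OPCs, where the listing starts at a score of 0.02. The missing entry therefore bounds its untreated activity only if the region was a candidate element there and contact was the same in both conditions, which was not tested. The lowest-scoring IFN-γ-OPC element of both genes covered a *Dtx3l* coding exon (chr16:35932327-35933016), had an activity of 0.354 and overlapped no Ctr-OPC element.

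*Parp14*, a mono-ADP-ribosyltransferase with macrodomains, was listed in both conditions with an element in its own intron close to its start. In Ctr-OPCs this element was chr16:35869988-35870487, with an activity of 0.198, lower than that of nearly all elements of the table (percentile 0.206), and a score of 0.0209. In IFN-γ-OPCs the overlapping element was chr16:35869056-35870481, with an activity of 2.70 (percentile 94.6) and a score of 0.102. It was the highest score of any of the 7 genes in either condition.

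The activity of the *Parp14* intron element was thus 13.6-fold higher with IFN-γ, while the median over 19332 elements matched between the tables was -0.084 on the log2 scale and 9.37% of them were more than 1.5-fold higher. The IFN-γ-OPC element was also longer, 1426 bp against 500 bp, and shared 494 bp with its Ctr-OPC counterpart. Per kb of element the activity went from 0.396 to 1.89, a 4.78-fold difference, which still exceeded that of 99.9% of matched elements. Contact moved the other way, from 0.0865 to 0.0355. The midpoints of the longer and the shorter element fell in different 5 kb contact bins, the shorter in the bin of the *Parp14* start and the longer in the bin beside it, so the contact values are of different bin pairs. On the log2 scale the score difference of 2.29 was made up of 3.77 from activity, -1.26 from contact (with the pseudocount of the model) and a gene total higher by 0.22.

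**Figure D2:**
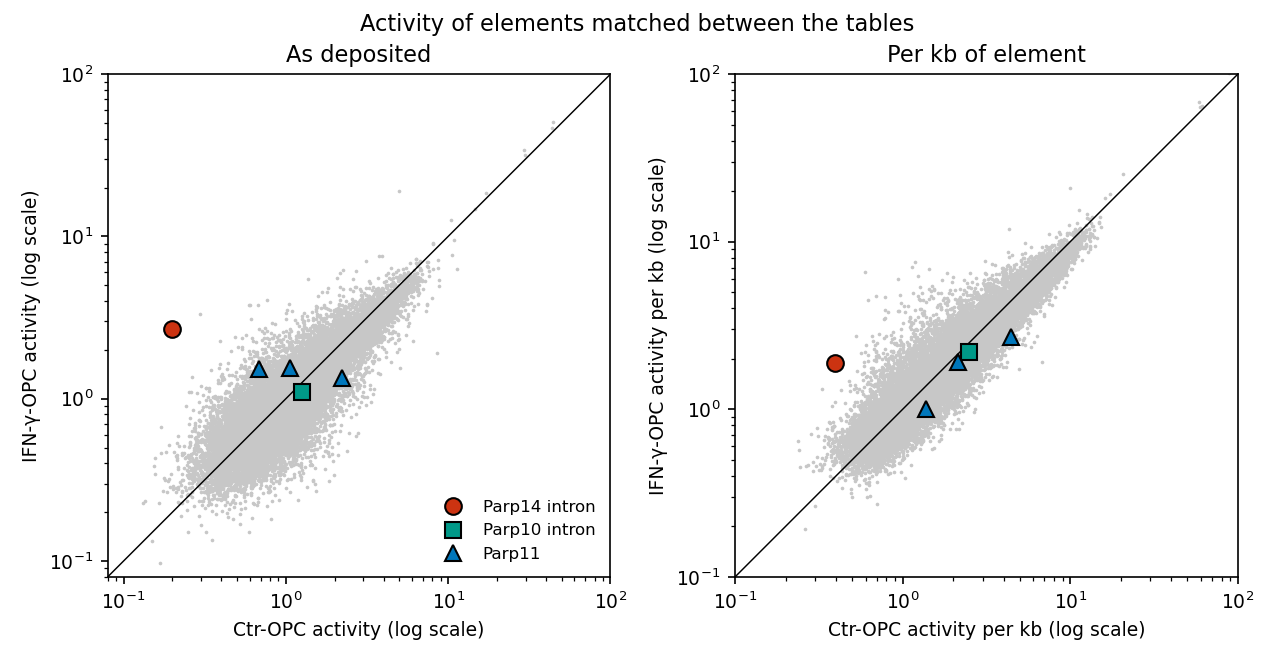
Activity of the 19332 elements matched between the tables (grey points) in Ctr-OPCs (horizontal axis, log scale) and IFN-γ-OPCs (vertical axis, log scale), as deposited on the left and per kb of element on the right, with the line of equality. The *Parp14* intron element (red circle) stands far above the line in both panels, while the *Parp11* elements (blue triangles) lie on either side of it on the left and below it on the right, and the *Parp10* element (green square) lies just below it.

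The intergenic and the *Parp14* intron element were each listed with all 3 genes of the locus in IFN-γ-OPCs. The intron element reached *Parp9* and *Dtx3l* at a score of 0.0283, across 68.7 and 69.4 kb, and the intergenic element reached *Parp14* at 0.0320, across 47.4 kb. Each of these elements had 11 target genes, a number reached by 1.11% of the elements of the IFN-γ-OPC table. Together they had 16 targets, of which 6 were shared, namely *Parp9*, *Dtx3l*, *Parp14*, *Wdr5b*, *Gm10237* and *Gm49730*. The highest score of the intergenic element, 0.156, was with the pseudogene *Gm10237*, and that of the intron element, 0.114, was with *Gm49730*, a transcript without an assigned class inside the span of *Parp14*. Neither element was therefore particular to the PARP genes by score.

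**Figure D3:**
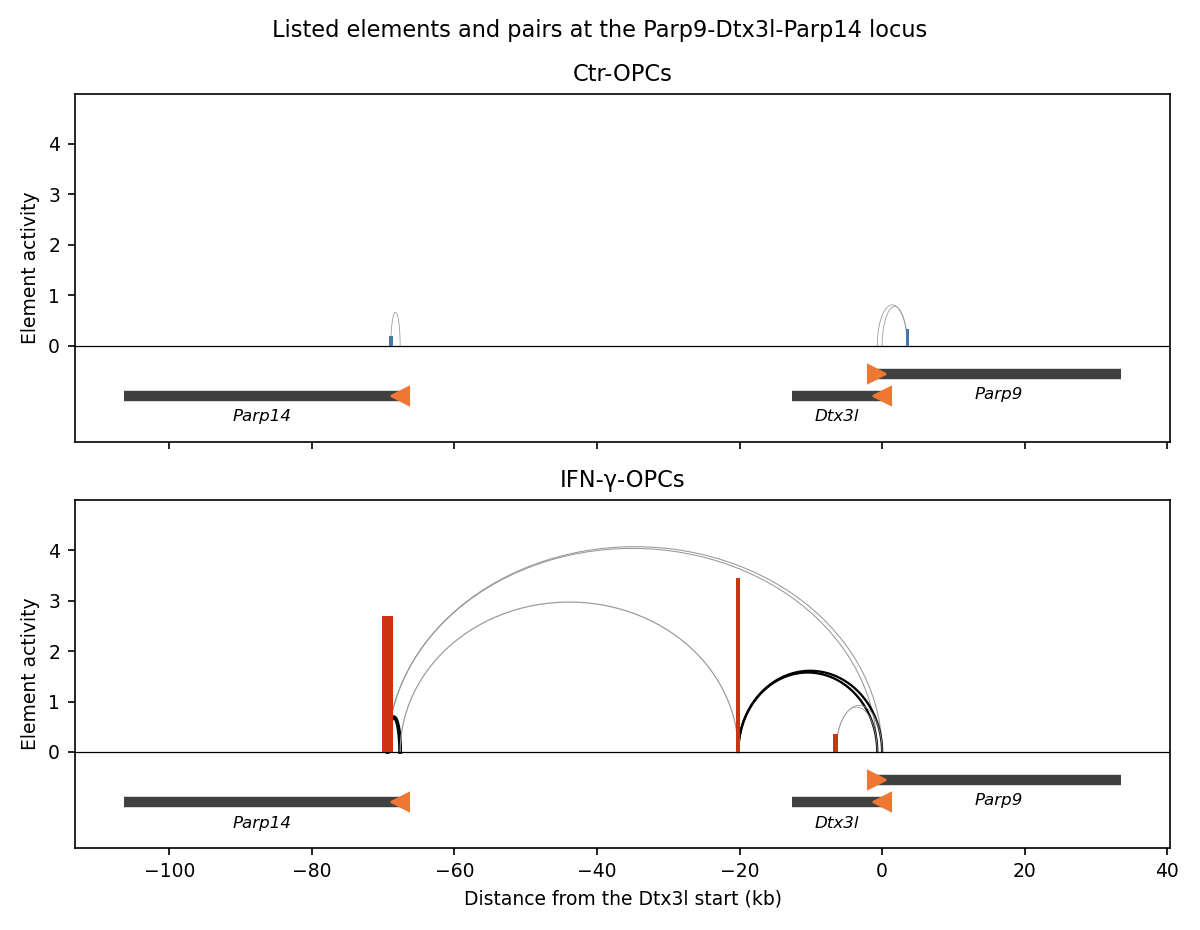
Listed elements of *Parp9*, *Dtx3l* and *Parp14* along the locus (horizontal axis, distance from the *Dtx3l* start in kb) with their activity as bar height (vertical axis, units of the ABC model) in Ctr-OPCs above and IFN-γ-OPCs below. Arcs join elements to gene starts (orange arrowheads, pointing along transcription), are wider for higher scores and are black for connections, and the bars of 3.45 and 2.70 appear only in IFN-γ-OPCs.

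Contact of these elements was lower with distant targets, though not in strict order of distance. The intergenic element had a contact of 0.0368 with the *Gm10237* start close by, 0.0150 with *Parp9* and *Dtx3l* and 0.00776 with *Parp14*. The intron element had a contact of 0.0355 with *Parp14* at 1.78 kb and 0.00836 with *Parp9* and *Dtx3l*. The power-law version of the score, which replaces measured contact by distance alone, gave 0.0980 for *Parp9* and 0.0953 for *Dtx3l* with the intergenic element, and 0.213 for *Parp14* with the intron element. All 3 connections were above the cut-off on both versions.

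**Figure D4:**
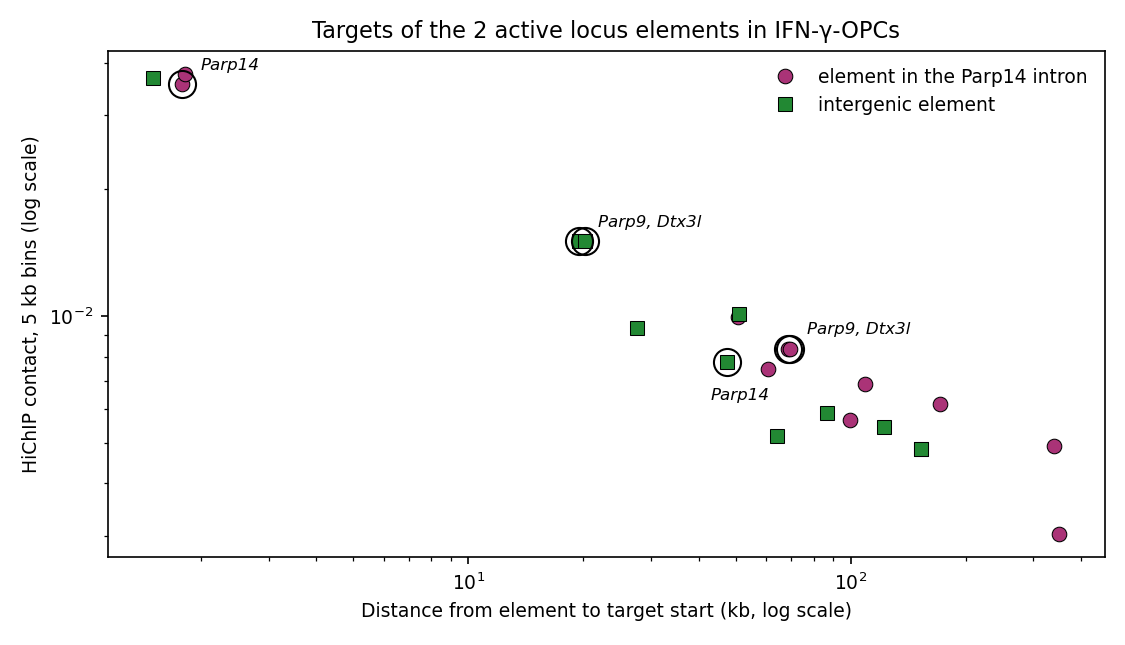
HiChIP contact in IFN-γ-OPCs (vertical axis, log scale) against the distance from element to target start (horizontal axis, kb, log scale) for the 11 targets each of the intergenic element (green squares) and the *Parp14* intron element (purple circles), with the 3 PARP-locus genes ringed. Contact with the ringed genes goes from 0.0355 at 1.78 kb to 0.00776 at 47.4 kb, while the other targets run from 0.0376 to 0.00303.

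The gene total, the sum of activity times contact over all elements around a gene, was higher with IFN-γ for all 4 members listed in both tables. *Parp9* went from 0.834 to 0.914 and *Dtx3l* likewise from 0.834 to 0.914, a log2 ratio of 0.13 for each. *Parp14* went from 0.830 to 0.967, a log2 ratio of 0.22. *Parp11* went from 1.05 to 1.17, a log2 ratio of 0.15. Over 20321 genes the median was -0.066, the middle 90% ran from -0.29 to 0.30, and 35.7% of genes had a higher total, so each of the 4 members lay inside the usual range, at percentiles from 84.3 to 91.4. None exceeded a 1.5-fold difference, which 0.615% of genes did. For *Parp9* and *Dtx3l* the summed activity times contact of the listed pairs was higher by 0.0829, beside differences in total of 0.0806 and 0.0805. For *Parp14* it was higher by 0.113 beside 0.137, and for *Parp11* by 0.0580 beside 0.117. These sums do not cover the same set of elements in the 2 conditions. A pair below the listing score of 0.02 is left out of its sum but counted in the total. How much of each difference in total the listed pairs make up therefore cannot be read from these values.

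**Figure D5:**
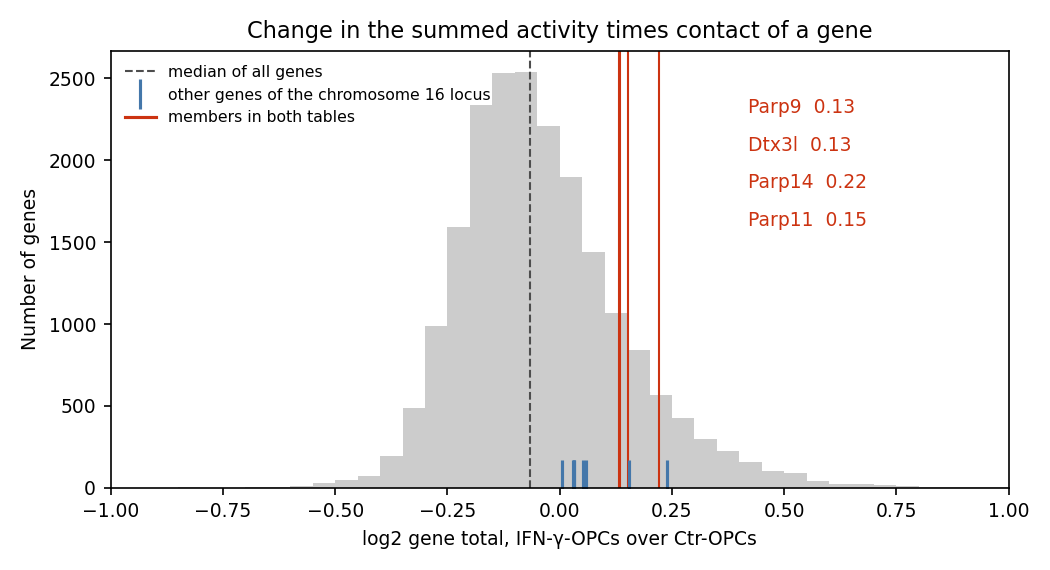
Number of genes (vertical axis) by log2 ratio of the gene total, IFN-γ-OPCs over Ctr-OPCs (horizontal axis), for 20321 genes, with the all-gene median of -0.066 dashed, the members listed in both tables as red lines and the other genes within 200 kb of the *Dtx3l* start as blue ticks. The red lines stand between 0.13 and 0.22, on the upper side of the distribution, and the blue ticks run from 0.0047 to 0.24.

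Neighbours of the locus had smaller differences in total for the most part. Within 200 kb of the *Dtx3l* start were 12 other target genes, with 9 pairs before and 22 after IFN-γ, and 2 of them, *Gm49730* and *Gm10237*, gained a connection. The 8 listed in both tables all had a higher total, by a median of 0.041 on the log2 scale against 0.13 to 0.22 for the 3 locus members. *Gm49728*, a pseudogene beside the 3′ end of *Parp14*, was above that range at 0.24, and *Wdr5b* was within it at 0.15 and went from 1 to 5 pairs. *Kpna1*, the next listed protein-coding gene beyond *Parp9*, was at 0.0047.

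Promoter activity quantiles, the rank of a gene's promoter activity among genes of its condition, were also higher with IFN-γ for the 4 members listed in both tables. *Parp9* went from 0.759 to 0.859, *Dtx3l* from 0.781 to 0.895, and *Parp14* from 0.742 to 0.858. *Parp11* had the largest step of the 4, from 0.757 to 0.914. Steps of at least 0.1 were seen for *Dtx3l*, *Parp14* and *Parp11*, and for 8.79% of all genes, and *Parp9* was just short of that size. Such steps were not particular to the members at the locus, since its neighbours *Gm41467*, a pseudogene between *Parp14* and *Dtx3l*, and *Gm26838*, an antisense gene, had steps of 0.228 and 0.134. In Ctr-OPCs *Parp1* ranked highest of the listed members at 0.955, with the others between 0.742 and 0.781.

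*Parp11*, a mono-ADP-ribosyltransferase gene, had a connection in each condition but not at the same element. In Ctr-OPCs it ran to chr6:127453473-127453972, an untranslated-region element that holds the start of a further *Parp11* transcript, at a score of 0.0720. In IFN-γ-OPCs the matching element scored 0.0471, and its activity went from 2.21 to 1.35, or 0.609-fold. The connection of IFN-γ-OPCs was the intronic element chr6:127449499-127450304, at 0.0538 against 0.0388 for its 500 bp counterpart in Ctr-OPCs. The activity of this intronic element was 1.07 without and 1.54 with IFN-γ, but the later element was 806 bp long, and per kb the ratio was 0.894. An intergenic element upstream of the gene likewise had 2.22-fold activity as deposited and 0.731-fold per kb, its length being 1518 bp against 500 bp. The direction at *Parp11* thus depended on element length for 2 of 3 matched elements, unlike at *Parp14*. A further element, in an intron at chr6:127448113-127448612, was listed only in IFN-γ-OPCs, at 0.0239.

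*Parp10*, a mono-ADP-ribosyltransferase gene, was not listed in Ctr-OPCs and had 1 pair in IFN-γ-OPCs, with an element in its own intron (chr15:76239037-76239536) at a score of 0.0383. The element was also listed with the neighbouring gene *Plec*, at 0.0219. The overlapping element of Ctr-OPCs was listed with *Plec* alone and had a slightly higher activity, 1.25 against 1.10. The new entry of *Parp10* therefore came without a rise in the activity of its element, and 19.6% of all target genes were likewise listed in IFN-γ-OPCs alone. The promoter quantile of *Parp10* was 0.825 in IFN-γ-OPCs and is not given for Ctr-OPCs. Whether its promoter rank or its contact kept it off the Ctr-OPC list was not tested. *Parp12*, a zinc-finger member of the family, was a target in neither table.

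*Parp1* was listed in Ctr-OPCs alone, with 1 element in its intron at chr1:180569543-180570204, 0.949 kb from its start, as were 17% of all target genes. That element had an activity of 1.37 and a score of 0.0479, just under the cut-off, and no element of the IFN-γ-OPC table overlapped it. The IFN-γ-OPC table gives no value for *Parp1*, and whether its score, its promoter rank or the calling of the element kept it off the list was not tested.

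The ISRE core was found in 3 of the 8 distinct elements listed with the members in IFN-γ-OPCs, and in 0 of the 6 in Ctr-OPCs. The sequence is the same in both conditions, so these counts differ only by which elements were listed and how far they extended. The 3 were the intergenic element, the *Parp14* intron element and the *Parp10* intron element, whose stretches are printed above. In the intergenic element the match (chr16:35918901-35918910) lay 63 bp from the midpoint, and among all 500 bp elements the core was present in 9.57% for IFN-γ-OPCs and 5.86% for Ctr-OPCs. In the *Parp14* intron element the match (chr16:35869310-35869319) lay in the part by which the IFN-γ-OPC element extended beyond its Ctr-OPC counterpart, and 20.5% of windows of 1426 bp held the core. The *Parp10* element held its match in both conditions' overlapping span, but its Ctr-OPC counterpart was listed with *Plec* alone and so was not among the 6. A GAS match was found only in the *Parp11* intron element, in both conditions, and in 23.1% of windows of 806 bp. Of the 7 genes, 4 had a promoter in the RefSeq table, with 5 promoters in all because *Parp11* had 2. The *Parp11* promoter at chr6:127446590-127446889 held an ISRE core and a GAS match that overlap, which 3.44% and 8.30% of all promoters hold. The other *Parp11* promoter (chr6:127453377-127453676), which overlaps the element of the Ctr-OPC connection, held neither motif, and nor did the promoters of *Dtx3l*, *Parp12* and *Parp1*. A match describes letters in a window and no binding was measured here.

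Of 20 other genes of ADP-ribosylation and of the Deltex ligase family, 16 were listed in at least 1 table. They went from 44 pairs to 29, with more pairs for 3 and fewer for 10 of the 16, beside 42.4% and 35.7% of all target genes. Their connections went from 5 to 3, with 0 genes gaining any, beside 14.9% of all target genes, and *Parp3* and *Parp8* losing 1 each. Of the 12 listed in both tables, 4 had a higher total and 8 a lower one, a split close to that of all genes, of which 35.7% were higher. Their median log2 ratio was -0.14, beside -0.066 for all genes and 0.14 for the 4 members. No gene of this list had a promoter quantile step of 0.1 or more. The groups within the list differed, with medians of 0.077 for the 6 transferases, -0.17 for the 2 hydrolases and -0.23 for the 4 Deltex genes. Of the 6 transferases 4 were higher, and 3 of them lay in the range of the members, namely *Tiparp*, a mono-ADP-ribosyltransferase gene, at 0.22, *Parp8* at 0.16 and the tankyrase gene *Tnks2* at 0.14. *Parp2*, a DNA-break sensor related to *Parp1*, was at 0.014. All 4 Deltex genes, relatives of *Dtx3l* known from Notch signalling, had lower totals and fewer pairs, with *Dtx3* at -0.31, *Dtx4* at -0.25, *Dtx1* at -0.21 and *Dtx2* at -0.15. Their pairs went from 17 to 8, whereas those of *Dtx3l* went from 1 to 3.

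The protein-coding genes whose totals in the 2 tables came nearest to the mean of *Parp9*, *Dtx3l* and *Parp14*, out of 10428, were *Mcur1*, *Pdcd4*, *Vapa*, *Borcs5* and *Lrrc8d*, at log2 distances of 0.017 to 0.030. None of them lies on chromosome 16, and 2 tables are too few for such likeness to be specific. The OPC markers *Pdgfra*, *Cspg4*, *Olig1*, *Olig2*, *Sox10* and *Ptprz1* were all listed in both tables, with promoter quantiles from 0.815 to 0.994. Markers of neurons were listed for 4 of 4 in both tables, and those of astrocytes and of mature oligodendrocytes for 3 of 4, mostly at lower quantiles, between 0.471 and 0.870 over all non-OPC lists. Microglial markers were listed for 2 of 4 in Ctr-OPCs, at 0.621 to 0.782, and for 4 of 4 in IFN-γ-OPCs, at 0.471 to 0.825, and their part in the differences above was not tested.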

How the data were processed

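The 6 HiChIP libraries, 3 per condition, were labelled by treatment. Reads had been aligned to mm10 with HiC-Pro, per the labels. The authors ran the ABC model with default parameters on ATAC-seq and H3K27ac CUT&RUN reads with HiChIP contact, and pooled the libraries of a condition in 1 table. The deposited activity is a signal whose scaling between conditions is not given in the sources used here. The deposited ABC score is a share of the gene total, the deposited contact is a score in 5 kb bins, and the deposited promoter quantile is a fraction from 0 to 1. Tables start at an ABC score of 0.02 and a promoter quantile of 0.4 and hold no pair marked by the model as a gene with its own promoter, although an element over a further transcript start of a gene can be listed.

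Gene totals were recovered as activity times contact divided by score. Elements were matched between tables by mutual best overlap of at least 1 bp. Target identifiers were named by GENCODE M21, and sequences came from RefSeq GRCm38.p6. Python 3.11.15, pandas 2.3.3 and pysam 0.24.0 were used, and the scripts were tested on simulated data. The members, the gene lists, the ISRE and GAS motifs and all rules were chosen with earlier results of these data known. Genes named beyond the members came from the 20-gene list, from targets of elements shared with a member, from the 5 nearest in total, and from a list of cell type markers. The window of 200 kb around the Dtx3l start and the alternatives of activity per length and of pairs within the same 5 kb bin were chosen after seeing the data. Alternatives were a higher and no score cut-off, the power-law score, stricter matching, scaling by table medians, activity per length, and pairs in the same bin. No test was run, because a condition has 1 table and no value per library.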

Additional observations from a re-analysis of the deposited data

How the results depend on the processing

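No paired analysis was possible because the 3 libraries of a condition share 1 table, although the labels number them 1 to 3. For the same reason no library could be left out. The gain in connections of *Parp9*, *Dtx3l* and *Parp14* was 3 at the 0.05 cut-off, 5 when all deposited pairs were counted, and 1 at a cut-off of 0.1, where *Parp14* alone had a connection. For *Parp10*, *Parp11* and *Parp12* the change of 0 became 2 with all deposited pairs and 2 with the power-law score, and for *Parp1* the change of 0 became -1 with each of these. The log2 activity difference of the *Parp14* intron element, 3.77, was 2.26 per length of element, an alternative chosen after seeing the data. The median log2 activity difference of the 4 matched elements of *Parp10* and *Parp11*, 0.17, was 0.28 after division by table medians. It turned to -0.19 with a reciprocal overlap of at least 50%, to -0.093 for pairs above 0.05 in at least 1 table, and to -0.32 per length, so its sign is not settled. The median log2 contact difference of *Parp11* pairs, 0.095, was 0.18 with the 50% overlap and 0.18 for pairs above 0.05. With the 50% overlap or within the same 5 kb bin (also chosen after seeing the data) no matched pair was left for *Parp14*, and *Parp1* gave no total ratio. The other 16 values of these groups stayed within 1.5 times the value given or kept their count. The unknown depth and the listing limit of 0.02 bound all of them.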
